A study of Homo sapiens with 4 samples.

Results

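Noncoding transcripts other than lncRNA made up 715 of the 46757 m6A peaks listed for HEK293T cells, on 247 of the 11254 transcripts with a peak. They were chosen by accession and annotation, with earlier results of these data known. Each peak lies on a RefSeq noncoding transcript (accession prefix NR) whose gene has a RefSeq biotype other than lncRNA. The Ctrl IP list held 371 of them on 225 genes, which is 1.57% of that list. The Cas IP list held 344 on 202 genes, which is 1.49% of that list. By biotype the 247 genes fell into 226 transcribed pseudogenes, 13 ribosomal RNA genes, 5 antisense RNAs, 1 noncoding transcript of a gene typed as coding (KANTR), 1 noncoding RNA pseudogene (LOC131696449) and 1 RNase P RNA gene (RPPH1). RPPH1 was the sole small RNA gene with a listed peak among the members, and no snoRNA, microRNA or snRNA gene was among them. Polyadenylated RNA was taken and no listed peak was narrower than 100 bases, so this absence says little about such genes.

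The series mapped N6-methyladenosine by MeRIP-seq, in which an m6A antibody enriches RNA fragments that carry the mark before sequencing. HEK293T is an established human embryonic kidney line, and polyadenylated RNA was taken for the assay. Cells of the Ctrl and Cas groups alike are labelled as transfected, with polyethylenimine, with dCas13b-M14 (an RNA-guided Cas13b without cutting activity, joined to a part called M14 that the labels do not explain) and a guide RNA, and the design text names sites in YTHDF2, SPEN and GAPDH as targets. The labels do not say how Ctrl cells differed from Cas cells, so each library below is named by its label only. Each group had 1 immunoprecipitated library, so no spread between replicates, p-value or test between groups could be had, and intervals cover the counting of peaks only. The lists hold transcript positions without a score, read count or fold, so depth is unknown, and absence of a peak means only that none was listed. Of the markers for the cell line, 6 of 6 (VIM, LIN28B, IGF2BP1, TERT, NEFL and NEFM) had peaks in both libraries, while 0 of 6 blood, 0 of 3 liver and 0 of 3 muscle markers and 1 of 4 fibroblast and endothelial markers (COL1A1) did.

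A pseudogene is a copy of a gene that no longer encodes the full protein. Processed pseudogenes arose from a spliced mRNA that was copied back into the genome and so lack introns, unprocessed ones arose by duplication of a stretch of DNA, and unitary ones are the former gene itself. Many are transcribed, and because they resemble a parent gene, short reads can be hard to assign to copy or parent. In mRNA, m6A is written by the METTL3 and METTL14 complex, mostly at DRACH (D is A, G or T; R is A or G; H is A, C or T), of which GGACT is a frequent form. Ribosomal RNA carries m6A too, written by other enzymes: METTL5 on 18S and ZCCHC4 on 28S. In immunoprecipitation, reads show the neighbourhood of a modified base and not the base itself.

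The following sequences show the small RNA gene, the antisense RNAs and a pseudogene identical to its parent, since these are the members whose identity rests most directly on sequence. They were read from GENCODE transcripts of GRCh38 whose 5' end lies within 10 bases of that of the RefSeq gene. DRACH matches are in capitals, and each runs 5' to 3' along its transcript.
RPPH1, Cas IP peak, positions 16 to 150, chr14:20343258-20343392, minus strand: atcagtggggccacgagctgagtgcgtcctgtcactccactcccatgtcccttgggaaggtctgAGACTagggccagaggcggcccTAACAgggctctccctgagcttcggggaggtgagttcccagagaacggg
EMX2OS, Cas IP peak, positions 735 to 852, chr10:117490723-117490840, minus strand: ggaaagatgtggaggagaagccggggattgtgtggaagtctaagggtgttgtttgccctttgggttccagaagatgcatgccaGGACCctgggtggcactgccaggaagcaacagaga
PINK1-AS, Cas IP peak, positions 3324 to 3427, chr1:20648767-20648870, minus strand: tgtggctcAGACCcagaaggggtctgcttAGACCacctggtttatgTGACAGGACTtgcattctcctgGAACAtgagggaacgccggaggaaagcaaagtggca
TSIX, Cas IP peak, positions 34584 to 34684, chrX:73826788-73826888, plus strand: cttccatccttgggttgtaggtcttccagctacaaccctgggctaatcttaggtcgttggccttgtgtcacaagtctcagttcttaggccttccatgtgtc
The same bases read on the strand of XIST: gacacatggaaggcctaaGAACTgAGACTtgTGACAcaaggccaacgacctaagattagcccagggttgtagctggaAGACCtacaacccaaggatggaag
SMG1P5, Ctrl IP peak, positions 484 to 717, chr16:30305058-30305870 across an intron, minus strand: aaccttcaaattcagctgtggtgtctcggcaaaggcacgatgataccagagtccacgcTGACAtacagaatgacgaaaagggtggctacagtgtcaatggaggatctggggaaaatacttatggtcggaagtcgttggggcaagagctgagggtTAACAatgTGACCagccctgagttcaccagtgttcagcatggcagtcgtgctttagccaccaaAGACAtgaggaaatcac

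RPPH1 is the RNA subunit of ribonuclease P, the enzyme that trims the 5' ends of transfer RNAs, and is made by RNA polymerase III. It had 1 peak, in the Cas IP library only, of 135 bases. The peak held 2 DRACH matches and no GGACT, against 4 DRACH matches on the opposite strand. Whether the authors' counting used strand is not given. It was the sole member among the polymerase III and nucleolar RNAs looked for by symbol (RN7SK, RN7SL, RMRP, RNY, VTRNA, SNOR, SCARNA, RNU, TERC and MIR genes had none). The selection of polyadenylated RNA was not aimed at such RNAs, so these absences say little about them.

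Most member genes carried peaks in both libraries. Of the 247 genes, 180 had peaks in both (72.9%, 95% interval 67.0 to 78.0), against 85.2% of all 11250 genes with a peak. A further 45 had peaks in Ctrl IP only (18.2%, 13.9 to 23.5; background 10.0%) and 22 in Cas IP only (8.91%, 5.96 to 13.1; background 4.79%). The intervals of both one-sided shares lay above the background, for the counting of genes only. Among coding transcripts 950 of 10575 genes (8.98%) had peaks in Ctrl IP only and 480 (4.54%) in Cas IP only, and among lncRNA genes 129 of 411 (31.4%) and 35 (8.52%). The pseudogenes held 162 genes with peaks in both, 44 in Ctrl IP only and 20 in Cas IP only. All 13 ribosomal RNA genes and 4 of 5 antisense RNAs had peaks in both.

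**Figure D1:**
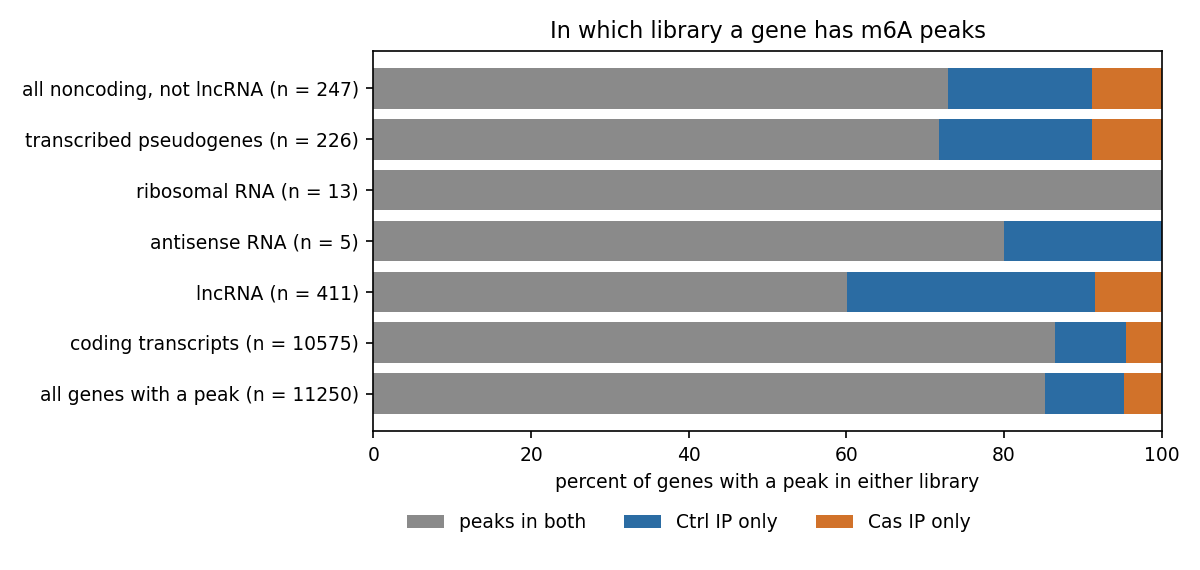
Share of genes with m6A peaks in both libraries (grey), in Ctrl IP only (blue) or in Cas IP only (orange), in percent of the genes of each class with a peak in either; n is the number of genes. Pseudogenes lie between coding transcripts and lncRNA, with 71.7% in both against 86.5% and 60.1%, and the ribosomal RNA genes are all grey.

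With genes split by library, peak number, width and position on a 10-base step were compared among members only. These values therefore cannot set members apart from other genes. Member genes seen in a lone library mostly had 1 peak. This held for 34 of the 45 Ctrl-only genes and 20 of the 22 Cas-only genes, while 73 of the 180 genes seen in both had 1 peak in each. Peaks of Ctrl-only genes had a median width of 140 bases and those of Cas-only genes 146.5, against 175 for genes seen in both. In the Ctrl-only genes 42.6% of peaks began and ended on a 10-base step of the transcript, against 24.3% in genes seen in both and 25% in Cas-only genes; the part of this grid in these calls was not tested. Over all members the median width was 178 bases in Ctrl IP (quartiles 140 and 234) and 164 in Cas IP (140 and 209), against 195 and 189 for coding transcripts. A lone peak was listed for 58.2% of member genes in Ctrl IP and 56.9% in Cas IP, against 37.8% and 36.3% of genes with coding transcripts. Neither trait was particular to members. Among lncRNA the median widths were 170 and 172 bases, and 65.7% and 68.8% of genes had a lone peak.

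Peak positions were compared by asking whether a peak of the other library lay on the same transcript with at least 1 shared base. In Ctrl IP 256 of 371 member peaks were overlapped (69.0%, 64.1 to 73.5), against 75.8% of all Ctrl IP peaks. In Cas IP 261 of 344 were (75.9%, 71.1 to 80.1), against 78.0% of all Cas IP peaks, a share near the background. The Ctrl IP share minus that of coding transcripts was -7.37 percentage points (-12.3 to -2.84), and minus that of lncRNA 12.5 points (6.20 to 18.5). Peaks of genes listed in a lone library cannot be overlapped by construction. When only genes with a peak in both libraries were counted, 82.6% of Ctrl IP and 81.6% of Cas IP member peaks were overlapped. The Ctrl IP difference was then 1.26 points from coding transcripts (-3.38 to 5.12) and 5.61 from lncRNA (-0.30 to 11.2). Among peaks at or above the median width of the list the difference from lncRNA was 1.18 points (-9.03 to 11.4), and without peaks on the 10-base grid that from coding transcripts was -5.24 (-11.1 to 0.20). In Cas IP the difference was -2.16 points from coding transcripts (-6.98 to 2.10) and -0.86 from lncRNA (-6.90 to 5.05), intervals that leave room for either sign. Overlapped member peaks were wider than the others, with medians of 193 and 140 bases in Ctrl IP and 170 and 149 in Cas IP. The same held over all listed peaks, with 211 and 144 in Ctrl IP and 201 and 149 in Cas IP.

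Peak numbers per gene were compared for the 180 genes with peaks in both libraries. Of these, 107 had the same number (59.4%), 41 had more in Cas IP and 32 more in Ctrl IP. The share with the same number was near that over all genes with peaks in both (55.8%), and was 67.6% for lncRNA. Among the 107 were 73 genes with 1 peak in each library. Ribosomal RNA gave 11 of the 41, and among the pseudogenes the counts were 30 and 30.

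**Figure D2:**
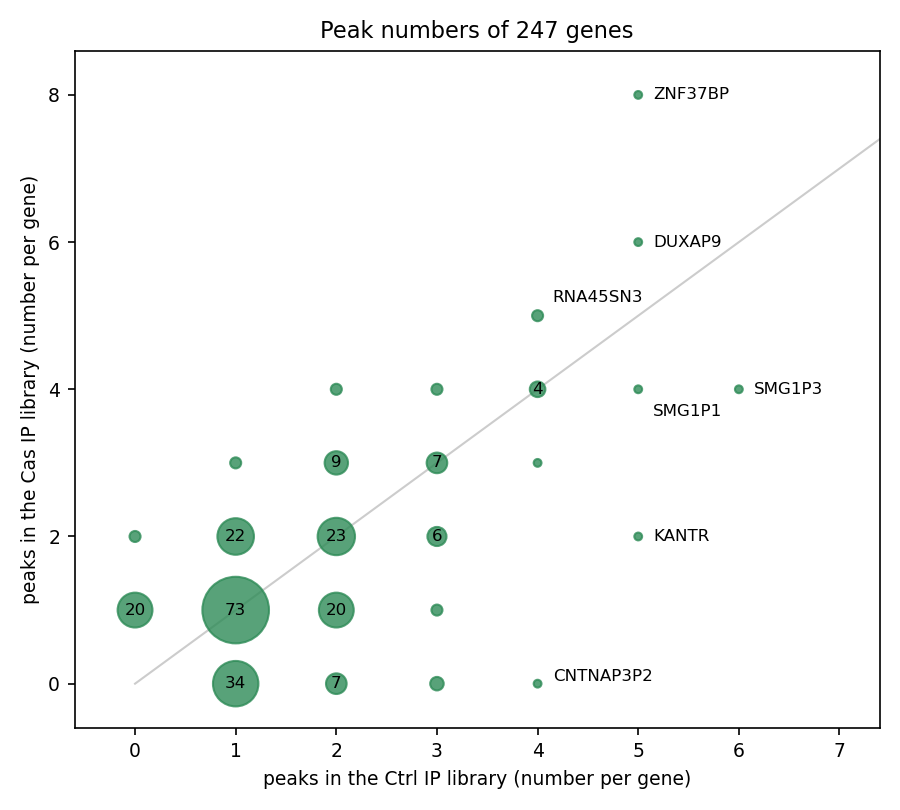
Number of listed peaks per gene in the Ctrl IP (x axis) and Cas IP (y axis) library; circle area is proportional to the number of genes at a point, printed where above 3, and the grey line marks equal numbers. The 73 genes with 1 peak in each library form the largest circle, and ZNF37BP, with 5 and 8, lies farthest above the line.

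Zinc finger pseudogenes are copies of genes for DNA-binding KRAB and related zinc finger proteins, whose parents form a large family with long terminal exons. Of 11 members of the zinc finger list, 10 had peaks in both libraries and 1 (ZKSCAN8P1) in Ctrl IP only, with 22 peaks in Ctrl IP and 27 in Cas IP. ZNF37BP (chr10:42513510-42552870 in GRCh38.p14), a copy of ZNF37A, had the most peaks of any member. In Ctrl IP 5 peaks spanned transcript positions 1257–1449, 2201–2690, 6314–6940, 7709–7908 and 8131–8365. In Cas IP 8 peaks spanned 1341–1449, 1851–2020, 2141–2280, 2471–2629, 6311–6640, 6691–7110, 7521–7690 and 8151–8280. The wide Ctrl IP peaks at 2201–2690 and 6314–6940 each faced 2 Cas IP peaks, while 2 Cas IP peaks and 1 Ctrl IP peak had no counterpart. Where these peaks could be aligned to ZNF37A, at 91.4% to 97.1% identity, ZNF37A had a peak at the aligned place for 3 of 3 in Ctrl IP and 5 of 6 in Cas IP; positions on the annotated partner may be displaced. ZNF271P had the same peak, 409 to 687, in both libraries to the base, and a further pair at 2003 to 2219 and 2010 to 2218. Its peak at 871 to 970 was listed in Ctrl IP only and that at 2341 to 2780 in Cas IP only. ZNF658B had 1 peak in Ctrl IP and 3 in Cas IP, with a shared peak at 1520 to 1771 in Ctrl IP and 1521 to 1800 in Cas IP and 2 narrower Cas IP peaks before it.

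DUXAP9 (chr14:19062377-19107497), a pseudogene of the double homeobox gene DUXA, had 5 peaks in Ctrl IP and 6 in Cas IP. Its Ctrl IP peaks at 361 to 619, 831 to 1100, 1151 to 1348, 1501 to 1757 and 3551 to 3710 each had a Cas IP counterpart, the last identical to the base. The additional Cas IP peak lay at 2456 to 2622. The related DUXAP8 and DUXAP10 also had peaks in both libraries, and all 10 Ctrl IP peaks of these 3 genes were overlapped. DUXA itself had no listed peak. The best coding alignment of a DUXAP10 peak in each library was to another gene, NBEA. Identity was 94.9% in Ctrl IP and 94.4% in Cas IP, and NBEA had a peak at the aligned place in both. Several peaks of the DUXAP genes had a copy at 99.6% to 100% identity among the 3 genes, so they need not be independent.

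Genes with symbols of segmental duplication families were the largest listed group with 51 genes. Segmental duplications are stretches of DNA present at several places in the genome. The group rests on symbol prefixes such as SMG1P, HERC2P, GOLGA, ANKRD and FAM, and not on mapped duplications. It includes FAM133CP, FAM133DP and SLC7A5P2, which GENCODE types as processed copies. Of these 39 had peaks in both libraries, 6 in Ctrl IP only and 6 in Cas IP only. SMG1P3 and SMG1P1 derive from SMG1, a kinase of nonsense-mediated mRNA decay. SMG1P3 (chr16:21446683-21502281) had 6 peaks in Ctrl IP, at 529–670, 768–906, 1863–2113, 2981–3080, 3467–3650 and 4050–4271. It had 4 in Cas IP, at 523–670, 749–970, 1901–2130 and 4070–4271. SMG1P1 had no peak like that of SMG1P3 at 2981–3080, and otherwise a similar arrangement, with 5 Ctrl IP peaks from 498 to 4192 and 4 Cas IP peaks from 505 to 4192, and its Ctrl IP peak at 3439–3592, like that of SMG1P3 at 3467–3650, had no Cas IP counterpart. SMG1P1 and SMG1P3 are copies of the same gene, so these peaks need not be separate observations.

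FAM239B (chrX:3885275-3920742) and FAM239A (chrX:3850992-3882351) are neighbouring copies. FAM239B had Ctrl IP peaks at 917 to 1056, 1855 to 2065, 2566 to 2881 and 5608 to 5812. FAM239A had them at 955 to 1094, 1893 to 2103, 2821 to 3120 and 4744 to 4948. The first, second and last of each had equal widths in the 2 genes, 140, 211 and 205 bases, and in Cas IP the matching widths were 185, 189 and 117. HERC2P2, a copy of the ubiquitin ligase gene HERC2, had 4 peaks in each library, of which 3 in Ctrl IP were overlapped. By symbol, GUSBP genes had peaks in both libraries in 5 of 6 cases, STAG3L genes in 4 of 5 and FAM86 genes in 4 of 6, and all 5 BMS1P, 4 WASH and 4 WHAMMP genes did. These symbol groups were formed after their values were seen.

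By GENCODE type, 113 of the 226 pseudogenes were transcribed unprocessed ones, of which 84 had peaks in both libraries, 17 in Ctrl IP only and 12 in Cas IP only. Transcribed processed pseudogenes numbered 23, with 15 in both, 6 in Ctrl IP only and 2 in Cas IP only. This type is GENCODE's label and does not mean that introns are lacking. The annotated partners of GTF2IP4 and SMPD4BP, both so typed, have 24 and 18 exons. Of 12 transcribed unitary pseudogenes 8 had peaks in both and 4 in Ctrl IP only. Those typed as unprocessed without the word transcribed numbered 18, with 10 in both, 4 in Ctrl IP only and 4 in Cas IP only, and those typed as processed 16, with 10, 5 and 1. In Ctrl IP 69.3% of peaks on transcribed unprocessed (61.9 to 75.8), 65.1% on transcribed processed (50.2 to 77.6) and 55.6% on transcribed unitary pseudogenes (33.7 to 75.4) were overlapped. The shares were 60.0% on processed (40.7 to 76.6) and 47.8% on unprocessed pseudogenes (29.2 to 67.0), the lowest of these 5 types, and the 5 intervals overlap one another. No GENCODE type was found for 28 pseudogenes, and the rest were typed as processed transcript (13), lincRNA (2) or protein coding (1).

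**Figure D3:**
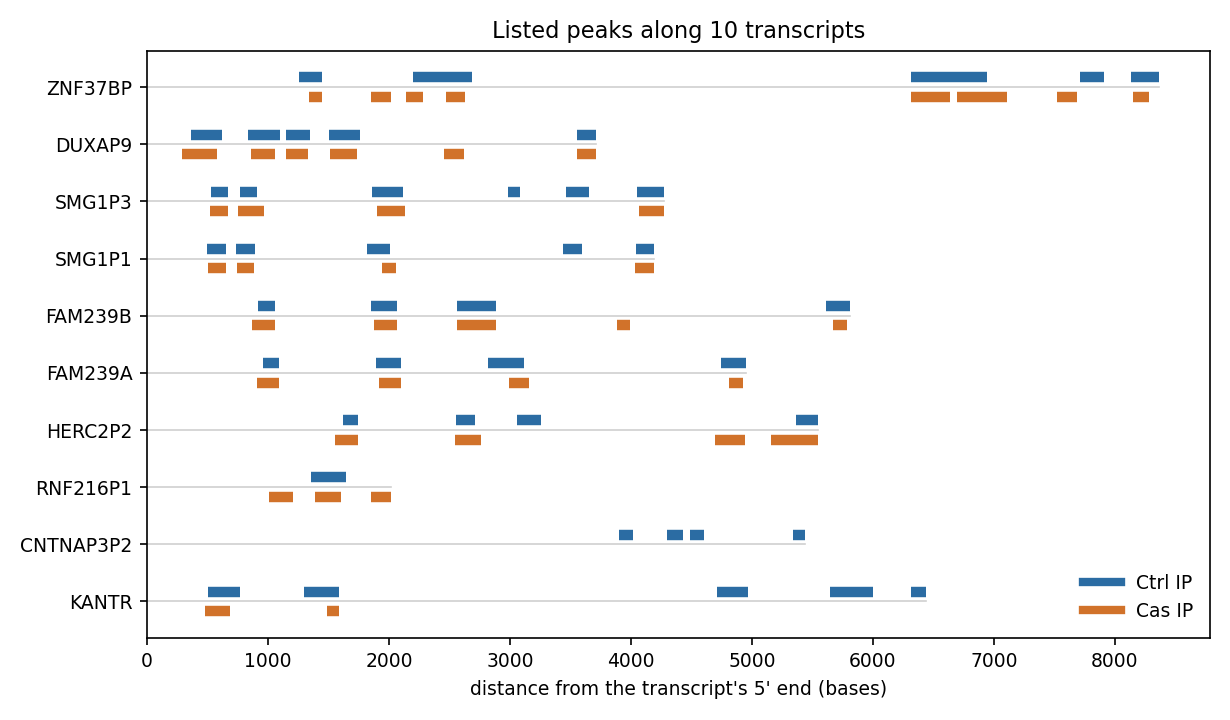
Listed peaks along 10 member transcripts, as distance from the transcript's 5' end in bases, with Ctrl IP above the grey line in blue and Cas IP below it in orange; lines run to the end of the last peak. Peaks of the 2 libraries mostly face each other, CNTNAP3P2 has peaks in Ctrl IP only, and KANTR lacks Cas IP peaks beyond position 1590.

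The Ctrl-only member with most peaks was CNTNAP3P2 (chr9:67059460-67297156), a copy of the cell adhesion gene CNTNAP3, with 4 narrow peaks at 3901 to 4020, 4301 to 4430, 4486 to 4601 and 5336 to 5436. CNTNAP3 itself had 2 peaks in each library. TOB2P1, HTR7P1 and ANKRD20A5P followed with 3 Ctrl IP peaks each, and GOLGA2P5 with 2, of which the peak at 981 to 1670 was 690 bases wide. Among Cas-only members NPEPPSP1, a copy of the aminopeptidase gene NPEPPS, had 2 peaks, at 314 to 472 and 735 to 875, and its parent had 4 in each library. TPI1P2 had 1 peak of 329 bases, SORD2P 1 of 302 and GOLGA8IP 1 of 187. HNRNPA1P10, the sole member among splicing regulator copies, had a Cas IP peak at 60 to 198. Among genes seen in both, RNF216P1 had 1 peak in Ctrl IP and 3 in Cas IP, while AHCTF1P1 and FAM86EP each had 3 and 1. In each of these 3 genes 1 pair of peaks overlapped.

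Copies of ribosomal protein genes are among the most common processed pseudogenes in the genome, although GENCODE types RPL23AP82 and RPL32P3 as transcribed unprocessed. Ribosomal protein pseudogenes among the members numbered 7. Of these 5 had peaks in both libraries and 2 (RPL23AP82 and RPS15AP10) in Ctrl IP only. RPL23AP53 had 3 peaks in each library, of which 2 overlapped, and RPL32P3 had 1, at 786 to 990 in Ctrl IP and 749 to 1009 in Cas IP. Of their 6 parents, RPL13A and RPS15A had 1 peak in each library, RPL21 had 1 in Ctrl IP only, RPL32 had 1 in Cas IP only, and RPL23A and RPS18 had no listed peak. Of 7 pseudogenes with symbols of the USP, RNF, TRIM, FBX or UBE kind, which name parts of the ubiquitin system, 6 had peaks in both libraries. HERC2 copies and USP32P3 were counted with the symbols of segmental duplication families. FBXL21P, a former F-box gene, had 1 peak in Ctrl IP and 2 in Cas IP. CCT6P1 and CCT6P3 are copies of a chaperonin subunit gene: CCT6P1 had overlapping peaks in both libraries, and CCT6P3 had 1 in Ctrl IP only. No histone pseudogene had a peak.

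Most members are annotated as copies of other genes, so sequence shared with another gene follows from how they were chosen, and the shares below describe them and are not a finding. Of 197 Ctrl IP member peaks whose sequence could be read, 111 (56.4%, 49.4 to 63.1) aligned over at least 80% of their length, with at least 95% identity, to a transcript of a gene at another place. In Cas IP 104 of 171 did (60.8%, 53.3 to 67.8). The shares were 5.74% and 6.41% for lncRNA peaks and 5.01% and 5.13% for peaks of coding transcripts. An alignment to a coding gene was found for 41.6% of member peaks in Ctrl IP and 39.8% in Cas IP. Member peaks with a copy were overlapped by the other library in 72.1% of cases in Ctrl IP (63.1 to 79.6), and those without in 57.0% (46.4 to 66.9). In Cas IP the shares were 79.8% (71.1 to 86.4) and 74.6% (63.1 to 83.5). The treatment of reads that match several places is not stated, and its part in these peaks was not tested.

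Where a member peak aligned to another transcript of the lists at 95% identity or more, that transcript often had a peak at the aligned place. This was so for 61 of 90 peaks in Ctrl IP (67.8%, 57.6 to 76.5) and 60 of 81 in Cas IP (74.1%, 63.6 to 82.4). Against transcripts of coding genes the counts were 32 of 74 in Ctrl IP (43.2%, 32.6 to 54.6) and 32 of 61 in Cas IP (52.5%, 40.2 to 64.5). Here a single alignment was kept per peak, whereas the counts before took any aligned transcript. The measures thus differ in more than the kind of target. SMG1P5 is such a case: the 234 bases printed above are identical to coding sequence of SMG1 at chr16:18896055-18896873, and its Cas IP peak at 485 to 718 is displaced by 1 base. SMG1 itself had a peak there in each library, at 550 to 763 in Ctrl IP and 550 to 774 in Cas IP. By contrast, the SMG1P1 and SMG1P3 peaks that could be read were 94.8% to 99.1% identical to SMG1, and an SMG1 peak lay at the aligned place for 1 of 10 in Ctrl IP and 0 of 7 in Cas IP, with positions that may be displaced. GTF2IP1, a copy of the transcription factor gene GTF2I, had a peak at 2593 to 2746 in both libraries that was 100% identical to positions 3523 to 3676 of GTF2I. GTF2I had a peak at 3527 to 3683 in Ctrl IP and at 3530 to 3683 in Cas IP. The Cas IP peak of TPI1P2, a processed copy of the glycolytic enzyme gene TPI1, was 93.1% identical to TPI1 with 23 differing bases or gaps. It lay in 1 stretch of the genome, while the aligned bases of TPI1 came from 5 exons, and TPI1 had a peak there in each library. The 5' ends of SMG1P5, GTF2IP1 and TPI1P2 match the annotation, those of the parents less exactly, and SMG1P5 and GTF2IP1 were chosen after their values were seen. Where both 5' ends matched, the parent had a peak there for 1 of 3 in Ctrl IP and 3 of 4 in Cas IP.

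Parents were also identified by symbol, by removing the final P and digits. This gave a coding parent for 117 of the 226 pseudogenes, 82 distinct genes in all. Of these parents 68 had a peak in at least 1 library (82.9%, 73.4 to 89.6) and 65 in both, while 10492 of 20056 coding genes of the table had a peak (52.3%). Expression was not measured in these lists, so the part of the parents' expression in this difference was not tested. Where a symbol parent and a coding alignment were both at hand, they named the same gene in 46 of 52 pseudogenes. SMG1, with 5 pseudogenes among the members, had 10 peaks in Ctrl IP and 12 in Cas IP, and HERC2, with 3, had 12 and 9.

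Ribosomal RNA peaks recurred at the same places on the gene copies. The 45S genes are transcribed as a precursor that is cut into mature 18S, 5.8S and 28S RNA. The lists name 13 entries for 45S, 18S or 28S genes, and an 18S or 28S entry can lie within a 45S entry. Counted from the first base of the mature RNA, the 22 Ctrl IP and 35 Cas IP peaks fell into 7 sites, of which 5 occurred in both libraries. On 18S, of 1869 bases, 1 site spanned 1048 to 1360 with 4 Ctrl IP and 5 Cas IP peaks, and another, close to the 3' end, spanned 1681 to 1830 with 3 and 8. At the first of these the Ctrl IP peaks covered 1171 to 1360 and the Cas IP peaks 1048 to 1290, and copies differed in which interval was listed. On 28S, of 5054 to 5070 bases, the sites at 1946 to 2098 and 4191 to 4392 had 6 and 8 peaks in each library. The site at 2281 to 2499 had 1 Ctrl IP and 3 Cas IP peaks. Those at 275 to 420 (4 peaks) and 3790 to 3930 (1 peak) were listed in Cas IP only.

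**Figure D4:**
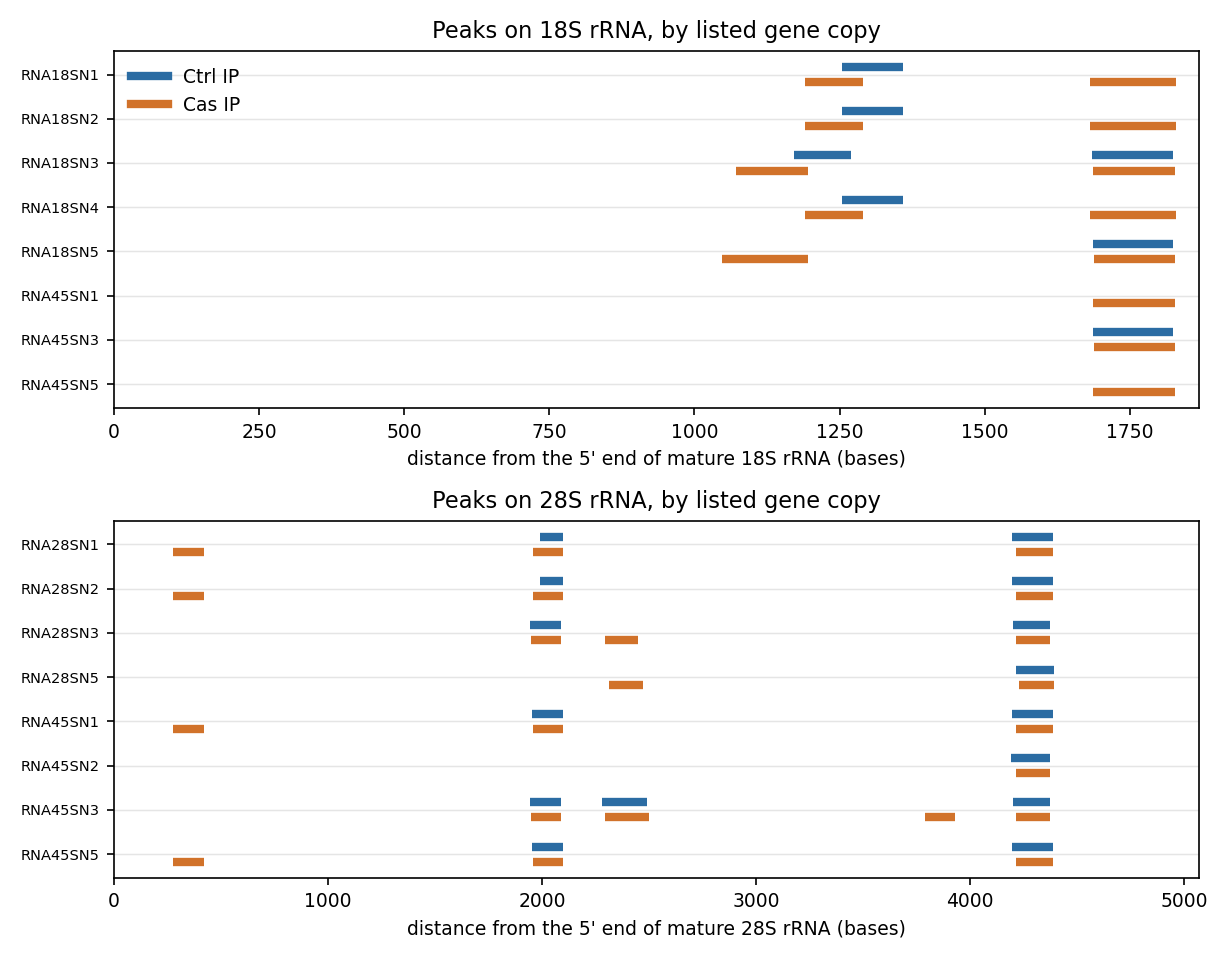
Peaks on the gene copies of 18S (upper panel) and 28S (lower panel) ribosomal RNA, as distance in bases from the 5' end of the mature RNA, with Ctrl IP in blue and Cas IP in orange. The 28S sites at 1946 to 2098 and 4191 to 4392 appear in both libraries, while that at 275 to 420 is orange alone.

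All 22 Ctrl IP ribosomal peaks were overlapped by a Cas IP peak of the same transcript, and 22 of the 35 Cas IP peaks by a Ctrl IP peak. Peak numbers were higher in Cas IP for 11 of the 13 genes and equal for RNA18SN3 and RNA45SN2. RNA45SN1 and RNA45SN5 each had 2 in Ctrl IP and 4 in Cas IP. These are not separate observations, since the gene copies are almost identical in sequence. At the positions listed, an identical interval on another entry of the same kind was found for 11 of 22 Ctrl IP peaks and 20 of 35 Cas IP peaks. RNA45SN1 and RNA45SN5 shared all of theirs. These are minimum counts, since they leave out intervals of different kinds of entry that coincide on the mature RNA. For example, RNA28SN2 and RNA45SN1 both covered its positions 4195 to 4387 in Ctrl IP and 275 to 420 in Cas IP. Ribosomal RNA is not polyadenylated and was not the target of the selection used. The share of ribosomal reads is unknown from these lists, and its part in the larger number in Cas IP was not tested.

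Antisense RNAs are transcribed from the strand opposite a coding or regulatory gene. TSIX is antisense to XIST, the RNA that coats and silences the inactive X chromosome. It had 1 peak in each library, at 34511 to 34973 in Ctrl IP and 34584 to 34684 in Cas IP. Both lay opposite listed XIST peaks, at 12738 to 13223 in Ctrl IP and 12737 to 13223 in Cas IP, sharing 449 and 101 bases with them. On the strand of TSIX the Cas IP peak held 0 DRACH matches and on that of XIST 4, as the sequences printed above show. The Ctrl IP peak held 6 and 21. The library kit named in the labels keeps strand, but whether the authors' counting used it is not given, so signal of XIST and TSIX cannot be told apart here. TALAM1, antisense to MALAT1, had a peak at 7611 to 7812 in Ctrl IP and 7601 to 7700 in Cas IP. The limit on strand holds for TALAM1 too.

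EMX2OS, opposite the homeobox gene EMX2, had 2 peaks in each library, at 708 to 887 and 5198 to 5297 in Ctrl IP and 735 to 852 and 5121 to 5260 in Cas IP, each overlapping its counterpart. The Cas IP peak at 735 to 852 held 1 DRACH match, against 3 on the opposite strand. PINK1-AS, opposite the mitochondrial kinase gene PINK1, had a shared peak at 3273 to 3580 in Ctrl IP and 3324 to 3427 in Cas IP. The Cas IP interval held 5 DRACH matches, of which 1 was GGACT, against 2 DRACH matches on the opposite strand. As with TSIX, use of strand in the counting is not given, so the peaks of EMX2OS and PINK1-AS cannot be assigned to a strand. The second Ctrl IP peak of PINK1-AS, at 261 to 360, shared 41 bases on the same strand with a peak of the neighbouring gene DDOST, an oligosaccharyltransferase subunit, and cannot be assigned to either transcript. TRAF3IP2-AS1 had 1 peak, at 4071 to 4180 in Ctrl IP. KANTR (chrX:53094142-53147921), an RNA of a gene that the table types as coding, had 5 peaks in Ctrl IP and 2 in Cas IP. Those at 501 to 772 and 1301 to 1590 in Ctrl IP were matched at 481 to 684 and 1491 to 1590, while those at 4712 to 4970, 5641 to 6000 and 6311 to 6441 were listed in Ctrl IP only. LOC131696449 had 2 Cas IP peaks, at 1531 to 1720 and 5771 to 6156.

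Sequence under the peaks was read for 368 of the 715. A DRACH match was present in 194 of 197 Ctrl IP peaks (98.5%) and 166 of 171 Cas IP peaks (97.1%), as in 97.3% and 97.0% of all listed peaks, so DRACH does not set members apart at these widths. GGACT was present in 21.3% of Ctrl IP member peaks (16.2 to 27.6) and 18.7% of Cas IP ones (13.6 to 25.2), against 27.1% and 25.4% of all listed peaks, inside the Ctrl IP interval and just above the Cas IP one. Within windows of equal length, 101 bases around the peak centre, GGACT was present in 13.2% (9.17 to 18.6) and 11.7% (7.70 to 17.4), against 15.03% and 14.05%. These intervals include the background, so a lower share at equal length was not detectable.

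Peaks lay along the length of the transcripts. On members with an annotated partner, 12.3% of Ctrl IP peak centres (8.69 to 17.1) and 10.7% of Cas IP ones (7.20 to 15.7) fell in the fifth nearest the 5' end, against 20.4% for coding transcripts in either library. Where the partner held every peak the shares were 13.5% and 12.5%, against 21.4% for coding transcripts in either library. The fifth nearest the 3' end held 27.5% and 25.4% of centres, against 16.5% and 15.8% for coding transcripts. Where a partner was shorter than the last peak's end, that end was taken as the length, which puts the last peak at the 3' end by construction. Where the partner held every peak the shares were 18.5% (13.5 to 24.9) and 18.4% (13.1 to 25.3), against 13.04% and 12.4% for coding transcripts. The exon that ends the transcript held the centre of 53.4% of Ctrl IP peaks (46.1 to 60.6) and 54.9% of Cas IP peaks (47.3 to 62.4) on transcripts with introns, beside 50.02% and 47.5% for coding transcripts.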

How the data were processed

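Peak lists of the Ctrl IP and Cas IP libraries were analysed, 1 library per group, and the inputs entered no comparison. As deposited by the authors, each line names a RefSeq transcript, where a peak starts and ends along it (counted from 1), a further inner position and a strand, and no score. Per the submitters' processing notes, FastQC, fastp, HISAT2, SAMtools, edgeR and HOMER were used with the build GRCh38; versions, peak caller, threshold and use of the input are not stated. Depth is unknown.

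RefSeq annotation of GRCh38.p14 supplied biotypes, symbols and coordinates, matched by accession after removal of a suffix that marks transcripts listed at several places (25 members). Another 17 noncoding accessions had no entry and were left out. Ribosomal positions were shifted to the mature RNA by the annotated starts of each copy. Sequence and genome positions were read through GENCODE release 29 partners, at hand for 155 of the 247 transcripts, with matching 5' ends in 58; elsewhere positions can be displaced. Peaks were aligned with BLAST 2.17.0 (word size 16). Wilson and Newcombe 95% intervals came from SciPy 1.17.1. Overlap and placement were tested on simulated data. Named genes were those of the small RNA biotype, the 5 with most peaks in each other class, in Ctrl IP only and in Cas IP only, the 5 largest gains and losses, and the 2 with most peaks per family. The members and lists were chosen with earlier results of these data known. Alternatives changed the overlap rule, the peaks and transcripts kept, and the identity asked of a copy.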

Additional observations from a re-analysis of the deposited data

How the results depend on the processing

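No paired analysis was possible because neither group held more than 1 immunoprecipitated library. Alternatives kept the side of the interval, or stayed within the main interval or 1.5 times the count, in 59 of 83 comparisons. Overlapped shares were, in Ctrl IP and Cas IP, 50.3% and 63.6% among peaks at or above the median width of each list (68 genes then had peaks in both), 56.1% and 60.5% with reciprocal overlap of at least 50%, and 82.6% and 81.6% in genes with peaks in both libraries. KANTR alone, the sole gene typed as coding, gave 40.0% and 100.0%, with 0 genes in Ctrl IP only, 0 in Cas IP only and 1 in both. Without peaks on the 10-base grid the Cas IP share was 69.1%. The Ctrl IP difference from lncRNA was 1.18 points among wider peaks and 5.61 in genes with peaks in both libraries, and both intervals then included 0. The Ctrl IP difference from coding transcripts was -5.24 points without grid peaks, its interval reaching past 0, and reversed to 1.26 points in genes with peaks in both libraries. The fifth nearest the 3' end held 18.5% and 18.4% where the partner held every peak. GGACT within 50 bases of the centre was found in 13.2% and 11.7%, and DRACH in Ctrl IP in 92.4%. Copies at 98% identity over 90% were found for 44.7% and 47.4%. Leaving out transcripts with a copy suffix moved neither the overlapped shares, their differences nor the gene counts past these limits. Keeping only partners with a matching 5' end moved neither the motif nor the copy shares past them, and was run for no position result. Both were chosen after seeing the data. Depth is unknown and sets no limit that can be given here.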

Other observations

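Of the 17 noncoding accessions without an entry in the gene table, which the comparisons left out, GENCODE names the mitochondrial ribosomal RNAs MT-RNR1 and MT-RNR2 for a pair. MT-RNR1 had a peak at 23 to 140 in Ctrl IP and at 32 to 172 in Cas IP. MT-RNR2 had a peak at 412 to 750 in Ctrl IP and at 406 to 730 in Cas IP. Both pairs overlapped.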
